A study of Mus musculus with 2 samples.

Results

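The genes that give a sympathetic neuron its identity and let it make, store and release noradrenaline were examined in the ureter of mouse embryos after conditional targeting of Gata6. The set comprised 8 genes, read in both raw scanner files as every non-control probe whose array gene name was Th, Dbh, Ddc, Slc18a1, Slc18a2, Phox2a, Tlx2 or Chrna3. These were 10 of the 39429 probes on the array, and 9 of them, for 7 of the 8 genes, were bright enough to be tested among 19801 genes. The filter on dim probes asked for at least 3 of 4 spots clearly above background in the same genotype on both arrays. The ureters were dissected from NMRI embryos at E14.5. The Gata6cKO embryos carried 1 Tbx18 allele with cre and 2 floxed Gata6 alleles, written Tbx18(cre/+);Gata6(fl/fl) in the labels. The control embryos were labelled Gata6(fl/?), with at least 1 floxed allele, a second Gata6 allele that is not given, and no cre named. Every RNA therefore came from an embryo with a floxed Gata6 allele. In Gata6cKO the cre also takes the place of 1 Tbx18 copy. Tbx18 marks the mesenchyme of the ureter, so the cre is driven there. A male pair of RNAs was hybridised on the first array, with Gata6cKO in Cy5 and control in Cy3, and a female pair on the second array with the dyes exchanged. Pooling of embryos and shared litters are not described in the labels, so p-values measure only the spread between these samples.

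Sympathetic neurons arise from the neural crest. The homeodomain protein Phox2a, together with Hand2, Gata3 and Insm1, helps to set up the noradrenergic program in their precursors. Noradrenaline is made in steps: tyrosine hydroxylase (Th) turns tyrosine into L-DOPA, DOPA decarboxylase (Ddc) turns L-DOPA into dopamine, vesicular monoamine transporters (Slc18a1 and Slc18a2) carry dopamine into vesicles, and dopamine beta-hydroxylase (Dbh) converts it there to noradrenaline. Autonomic neurons near pelvic organs may be adrenergic or cholinergic, and they receive their input through nicotinic acetylcholine receptors, of which Chrna3 encodes a subunit.

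Each array was read as 1 Gata6cKO RNA against 1 control RNA, from 150 ng of total RNA each per the labels. Median spot intensity was 232 in Cy3 and 425 in Cy5 on the male array, and 224 and 442 on the female array. Between 67.2% and 68.5% of spots were well above background, and 0 spots were saturated. Over all genes tested, the log2 ratios of the arrays had a Pearson r of 0.41 across genes, which are not independent replicates. The Gata6 probe read higher in Gata6cKO, with a log2 ratio of 0.65 ± 0.12 (moderated SE, 2 arrays), a call lost in 3 of 9 alternative settings. Its place relative to the loxP sites is not known here, so it checks nothing about the labels. Markers of the labelled tissue were present: all 7 urothelial and all 7 mesenchymal or smooth muscle markers listed were bright enough to be tested.

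The sympathetic identity and noradrenaline genes are called noradrenergic here for short. Apart from Ddc, those that could be measured were higher in the Gata6cKO ureters. The short name is a label only and does not identify the cells. Tlx2 is also a gene of enteric and other autonomic neurons, and Slc18a1 is best known from chromaffin and other endocrine cells. Chrna3 encodes a receptor subunit of autonomic ganglia, whose neurons may be adrenergic or cholinergic. Tlx2, Dbh and Phox2a had the largest ratios, at 2.92-fold, 2.47-fold and 2.42-fold. Slc18a2, Th and Slc18a1 were 1.62-fold, 1.54-fold and 1.42-fold higher. Ddc, the decarboxylase between Th and Dbh, had a ratio of 1.08-fold and did not pass the test, and Chrna3 was not well above background in either genotype. The test was limma's moderated test on log2 ratios, adjusted by Benjamini-Hochberg over all 19801 genes, with a threshold of 0.05 on the adjusted p. By this test 6 of the 7 measured genes rose, 0 fell and 1 did not pass, whereas 2.20% of all genes tested were higher and 2.35% were lower. In 6 of the 7 genes both Gata6cKO intensities lay above both control intensities, which held for 15.9% of all genes tested. The median log2 ratio of the 7 genes was 0.70, and 0.48 and 0.92 on the male and the female array, beside -0.00 for all genes tested. In bulk RNA of a whole ureter, a change in the number of nerve cells and a change in RNA per cell cannot be told apart. The design has 2 arrays and 1 residual degree of freedom, and most of the error estimate comes from the spread pooled over genes. Every SE given is limma's moderated SE, so it rests mostly on that pooled spread. It does not measure how far the 2 arrays differ for a single gene.

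**Figure D1:**
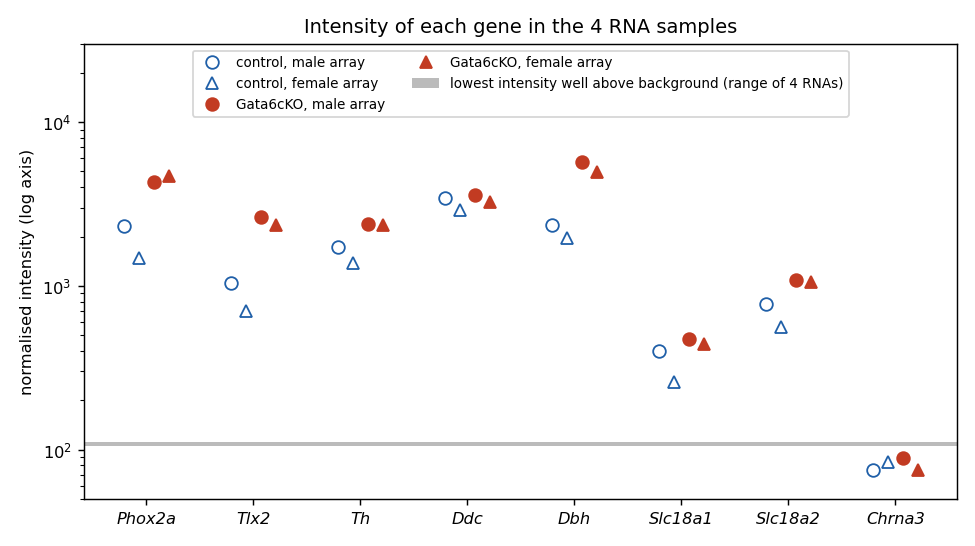
Normalised intensity (log axis) of each of the 8 genes in the 4 RNA samples. Filled red symbols are Gata6cKO, open blue symbols are control, circles are the male array, triangles the female array, and the grey band is the lowest intensity well above background (105.6 to 110.8). The red symbols lie above both blue ones in 6 genes, those of Ddc are interleaved, and Chrna3 lies below the band. Intensities of different genes come from different probes and are not comparable.

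Since 6 of these genes moved together, their start regions are shown, as far as the RefSeq promoter table on GRCm38.p6 lists them. The table held 6 of the 8 genes, with 7 windows because Ddc has 2. Tlx2 and Slc18a1 were without an entry there. Each window runs from 250 bases before the transcription start to 50 after it. Those of 4 genes that rose are printed 5′ to 3′ on the gene's own strand, and capitals mark matches on either strand to the motif TGACGTCA or its part TGACG, to the motif CANNTG and to the motif GATAA.
Th, chr7:142899946-142900245, minus strand: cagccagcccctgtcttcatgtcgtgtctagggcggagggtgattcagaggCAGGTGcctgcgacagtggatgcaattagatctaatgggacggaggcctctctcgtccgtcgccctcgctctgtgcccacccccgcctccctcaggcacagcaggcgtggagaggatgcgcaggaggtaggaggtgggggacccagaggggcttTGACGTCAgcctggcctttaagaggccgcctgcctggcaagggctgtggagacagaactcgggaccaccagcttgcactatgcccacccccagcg
Slc18a2, chr19:59260628-59260927, plus strand: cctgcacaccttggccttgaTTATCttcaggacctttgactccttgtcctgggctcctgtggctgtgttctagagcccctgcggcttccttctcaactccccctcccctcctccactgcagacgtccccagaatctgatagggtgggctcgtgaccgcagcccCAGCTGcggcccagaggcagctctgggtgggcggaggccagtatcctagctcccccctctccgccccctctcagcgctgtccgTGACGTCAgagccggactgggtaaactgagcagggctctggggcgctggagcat
Dbh, chr2:27165257-27165556, plus strand: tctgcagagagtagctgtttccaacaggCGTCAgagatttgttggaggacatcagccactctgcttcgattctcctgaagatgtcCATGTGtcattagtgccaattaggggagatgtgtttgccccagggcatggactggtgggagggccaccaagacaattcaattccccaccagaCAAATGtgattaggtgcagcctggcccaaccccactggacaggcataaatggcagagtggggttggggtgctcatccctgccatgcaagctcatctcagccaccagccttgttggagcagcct
Phox2a, chr7:101818063-101818362, plus strand: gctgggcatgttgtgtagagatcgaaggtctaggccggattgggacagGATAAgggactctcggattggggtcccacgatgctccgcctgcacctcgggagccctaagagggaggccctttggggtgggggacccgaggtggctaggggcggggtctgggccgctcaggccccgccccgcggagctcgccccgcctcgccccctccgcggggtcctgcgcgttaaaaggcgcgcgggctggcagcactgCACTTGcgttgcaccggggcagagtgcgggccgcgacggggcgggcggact
The palindrome TGACGTCA, the cAMP response element, began 45 bases before the start of Th and 4 bases before that of Slc18a2. It occurred in 1.79% of all 32851 windows in the table. Its shorter part TGACG, contained in the same 2 sites on either strand, also stood 222 bases before the Dbh start, read there on the opposite strand as CGTCA, and occurred in 20.8% of all windows. The E-box CANNTG, bound by bHLH proteins such as Hand2, was in 5 of the 7 windows and in 72.3% of all. The letters GATAA, the core recognised by GATA factors, were found 202 bases before the Phox2a start and 230 before that of Slc18a2, and in 25.4% of all windows. The letters CATCTG and TAATTA, present in 17.2% and 5.29% of all windows, were in 0 of the 7. Windows of Th, Slc18a2 and Phox2a held 64.3%, 64.0% and 71.3% G and C, against a median of 52.7% over the table and 54.0% for Dbh. A match of letters is a description of the sequence and not of a bound site.

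Among the transcription factors, Tlx2 and Phox2a were 2.92-fold and 2.42-fold higher, and Hand2 and Isl1 rose alongside. Phox2a is a paired-like homeodomain protein that acts upstream of Th and Dbh. Its probe (mm9 chr7:108971127-108971186, plus strand) read 4300 and 4688 in the Gata6cKO RNAs of the male and the female array, against 2317 and 1485 in the controls. The groups lay apart, and the female control was the lowest of the 4 values. The log2 ratio was 1.28 ± 0.15 (moderated SE, 2 arrays), the mean of 0.89 (male) and 1.66 (female), with adjusted p = 0.000249 in limma. The SD between the 2 arrays was 0.54. Tlx2 encodes a homeodomain protein of enteric and other autonomic neurons, and its probe lies at mm9 chr6:83018323-83018382 on the minus strand. It read 2640 and 2363 in Gata6cKO against 1040 and 703 in control. Both Gata6cKO values exceeded both controls by a wide margin, and the groups did not overlap. The log2 ratio was 1.55 ± 0.12 (SE; limma, adjusted p = 9.50e-06), the mean of 1.34 (male) and 1.75 (female).

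Of 11 further transcription factors of autonomic neurons, all bright enough to test, 6 rose, 0 fell and 5 did not pass, with a median log2 ratio of 0.53. Hand2, a bHLH factor needed for noradrenergic differentiation, rose by a log2 ratio of 1.26 (limma, adjusted p = 4.68e-05). Isl1, a LIM homeodomain factor of sympathetic and sensory neurons, rose by 1.23, and Hand1, a relative of Hand2, by 0.80 (limma, adjusted p = 2.20e-05 and 0.00105). Insm1, a zinc finger factor of neuroendocrine precursors and named after its values were seen, rose by 0.82, the mean of 0.50 (male) and 1.15 (female). The GATA factors of the list did not pass: Gata2 had a log2 ratio of 0.05 and Gata3 of -0.06, each with opposite signs on the arrays. Gata2, Gata3, Hand1 and Hand2 are all also made by cells other than neurons, and the cell source of their signal was not tested. Phox2a, Tlx2, Hand2 and Isl1 kept their calls under all 9 alternative settings run, while Hand1 lost its call with median centring (limma, adjusted p = 0.0842) and Insm1 in 3 settings.

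**Figure D2:**
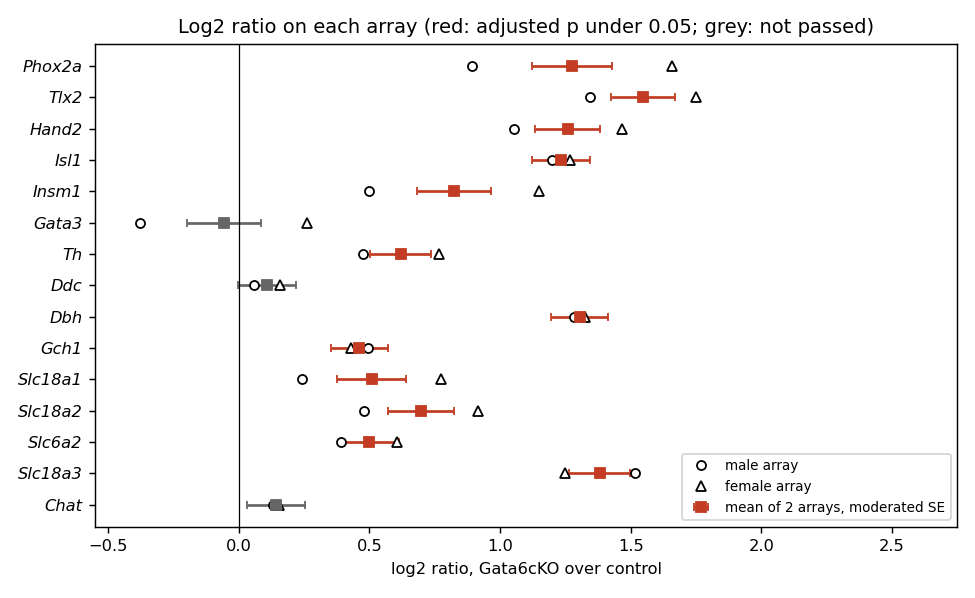
Log2 ratio of Gata6cKO over control for genes of the noradrenergic and cholinergic programs. Open circles are the male array, open triangles the female array, and squares with bars the mean of 2 arrays with its moderated SE. Red squares passed the limma test and grey ones did not. Slc6a2, though red, entered the test only through Gata6cKO. Dbh, Tlx2, Phox2a, Hand2, Isl1 and Slc18a3 lie above 1, whereas Ddc, Chat and Gata3 lie near 0.

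Along the synthesis pathway the 3 enzymes differed in their ratios: Dbh was 2.47-fold higher, Th was 1.54-fold higher, and Ddc did not pass. Th, the rate-limiting step, read 2399 and 2359 in Gata6cKO on the male and the female array, against 1726 and 1389 in control (mm9 chr7:150078703-150078762, minus strand). The Gata6cKO values were close to each other, and both exceeded the higher control. Its log2 ratio was 0.62 ± 0.12 (SE; limma, adjusted p = 0.00633), the mean of 0.48 (male) and 0.76 (female). Dbh, the last enzyme of noradrenaline synthesis and the one that separates noradrenergic from dopaminergic cells, was measured at mm9 chr2:27038665-27038724 on the plus strand. It read 5728 and 4926 in Gata6cKO against 2352 and 1966 in control. The groups stood clear of each other, and the arrays gave nearly the same log2 ratio, 1.28 and 1.32. Its mean log2 ratio was 1.30 ± 0.11 (moderated SE, 2 arrays, limma adjusted p = 1.40e-05), which ranked 23 from the top of all genes tested.

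Ddc is shared by all cells that make dopamine or serotonin and is found in tissues beyond neurons. Its brighter probe (mm9 chr11:11714106-11714165, minus strand) read 3601 and 3236 in Gata6cKO against 3455 and 2902 in control. The male control exceeded the female Gata6cKO value, so the groups overlapped. The log2 ratio was 0.11 ± 0.11 (SE; limma, adjusted p = 1.00), the mean of 0.06 (male) and 0.16 (female). A second probe at mm9 chr11:11776262-11776321 was dimmer, with 201.0 and 216 in Gata6cKO and 201.5 and 177 in control, and a log2 ratio of 0.14. The log2 ratio of Dbh exceeded that of Ddc by 1.22 (male) and 1.17 (female), and that of Th by 0.81 and 0.56. These differences between genes were not tested. Dbh kept its call under all 9 alternative settings (highest adjusted p = 0.00701, limma). Th lost its call when loess was replaced by median centring (limma, adjusted p = 0.623) and without the filter on dim probes (limma, adjusted p = 0.0560), at log2 ratios that stayed between 0.59 and 0.68.

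Both vesicular monoamine transporters were higher in Gata6cKO, by 1.62-fold for Slc18a2 and 1.42-fold for Slc18a1. Slc18a2 (VMAT2) is the transporter of sympathetic neurons. Its brighter probe (mm9 chr19:59370106-59370165) read 1082 and 1055 in Gata6cKO against 777 and 559 in control. The Gata6cKO values nearly coincided, and the female control was the lowest. Its log2 ratio was 0.70 ± 0.13 (SE; limma, adjusted p = 0.00463), the mean of 0.48 (male) and 0.92 (female). A dimmer probe that overlaps it on the genome (mm9 chr19:59370153-59370212) gave a log2 ratio of 0.64. It read 234 and 242 in Gata6cKO against 164 and 142 in control, again with the groups apart. Slc18a1 (VMAT1) is best known from chromaffin and other endocrine cells. Its probe (mm9 chr8:71561627-71561686, minus strand) read 473 and 440.0 in Gata6cKO against 399.6 and 257 in control. The groups were apart, but the female Gata6cKO and the male control differed by less than the controls did from each other. The log2 ratio was 0.51 ± 0.13 (SE; limma, adjusted p = 0.0467), the mean of 0.24 (male) and 0.78 (female). Slc18a1 lost its call with median centring (limma, adjusted p = 0.972), without the filter (0.234), with the probes of a gene averaged (0.0526) and with channels fitted separately (0.366). Slc18a2 lost it in 3 of these settings, with limma adjusted p of 0.290, 0.0713 and, with channels fitted separately, 0.0646.

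The other genes of the catecholamine pathway were mixed. Of 15 genes for cofactor synthesis, storage, uptake and breakdown, 14 were tested: 4 rose, 1 fell and 9 did not pass, with a median log2 ratio of -0.06. Scg2, a granin of secretory vesicles, rose by 0.88, and the granin Chgb by 0.47 (limma, adjusted p = 0.000478 and 0.0408), the latter with 0.29 (male) and 0.65 (female). Gch1, the rate-limiting enzyme for the tetrahydrobiopterin that Th needs, rose by 0.46 (limma, adjusted p = 0.0286), and its second probe gave 0.38. Pts, the next enzyme of that cofactor pathway, had a log2 ratio of -0.51, the mean of -0.30 (male) and -0.71 (female), and passed as lower (limma, adjusted p = 0.0328). Slc6a2 takes noradrenaline back up into the neuron. It passed (limma, adjusted p = 0.0215) but entered the test only through Gata6cKO, where it was high, so its call is no independent evidence of a rise. In the controls it was not well above background. It read 97.8 and 81.9 there against 128 and 125 in Gata6cKO. Dividing the Gata6cKO mean by the lowest intensity well above background gives a bound of 1.17-fold. The bound has no error and does not by itself show a rise. Chga had a log2 ratio of 0.61 ± 0.18 (moderated SE, 2 arrays) and did not pass (limma, adjusted p = 0.0821). Its array values were 0.11 (male) and 1.12 (female), with an SD of 0.71 between them. Pnmt, which makes adrenaline from noradrenaline, read 115 and 123 in Gata6cKO against 117 and 120 in control, missed the filter on dim probes and was not tested. The calls of Gch1, Pts and Chgb were each lost in 3 of the 9 settings. That of Slc6a2 was lost in 3 as well. A stricter filter on dim probes removed the gene and left 3 of this list that rose.

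Chrna3 encodes the nicotinic receptor subunit of autonomic ganglia and was not well above background. Its probe (mm9 chr9:54859230-54859289, minus strand) read 88.9 and 75.3 in Gata6cKO and 75.0 and 83.4 in control. The lowest intensity well above background in any of the 4 RNAs was 105.6, so the 4 values have no order and no fold is given. Its neighbours on chromosome 9, Chrna5 and Chrnb4, encode the subunits that assemble with it. Chrna5 was below the filter on dim probes, and Chrnb4, at a log2 ratio of 0.08, did not pass. Slc18a3, the vesicular acetylcholine transporter, was the member of the cholinergic list that passed. It read 550 and 468 in Gata6cKO against 192 and 197 in control. Both groups were tight and clearly apart, with a log2 ratio of 1.38 ± 0.12 (moderated SE, 2 arrays, limma adjusted p = 1.38e-05). Chat, which makes acetylcholine and shares its gene locus with Slc18a3, did not pass, at a log2 ratio of 0.14. Of the 9 cholinergic genes listed 7 were tested, of which 1 rose, 0 fell and 6 did not pass, with a median log2 ratio of 0.25. All 7 had log2 ratios above 0 on both arrays, as did 4627 of all 19801 genes tested. Of the 7, Chrnb2 entered the test only through Gata6cKO, and Chrnb4 stood at 0.01 on the male array. The number that rose ran from 1 to 4 over the settings.

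Among adrenergic receptors, 8 of 9 were tested, 2 rose and 0 fell, with a median log2 ratio of 0.08. Both that rose are alpha-2 receptors, which act as autoreceptors on noradrenergic terminals and also occur on other cells. Adra2a rose by 0.80 and Adra2c by 0.52 (limma, adjusted p = 0.000647 and 0.0144), while Adra1a was not well above background. Growth factors and receptors of autonomic neurons gave 5 that rose, 0 that fell and 7 that did not pass, of 12 tested, with a median of 0.29. Gdnf, a ligand of the receptor Ret, rose by 1.59, and Ret itself by 0.64 (limma, adjusted p = 4.43e-06 and 0.00395). Ntrk3, the receptor for neurotrophin-3, rose by 1.02 (limma, adjusted p = 0.000162). Of 7 cotransmitters 6 were tested, and 3 rose while 0 fell, with a median of 0.48. These were Cartpt at 2.09, Npy, the main cotransmitter of sympathetic neurons, at 0.77, and Penk at 0.57 (limma, adjusted p = 1.96e-06, 0.00112 and 0.0120). Vip, a peptide of cholinergic autonomic neurons, was not well above background. The cell source of the signal of these receptors, growth factors and cotransmitters was not tested. Over all 6 lists of the pathway, 21 of 58 tested genes rose, 1 fell and 36 did not pass, beside 2.20% higher and 2.35% lower among all genes. The lists were chosen with earlier results of these data known, and Insm1 is among the 21. The count therefore describes the lists and is no independent evidence. With median centring and without the filter these 21 became 9 and 13. With the stricter filter, which removed Slc6a2, they became 20. Adra2c, Penk, Ret, Npy and Adra2a were among the calls lost in at least 1 of the 9 settings.

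**Figure D3:**
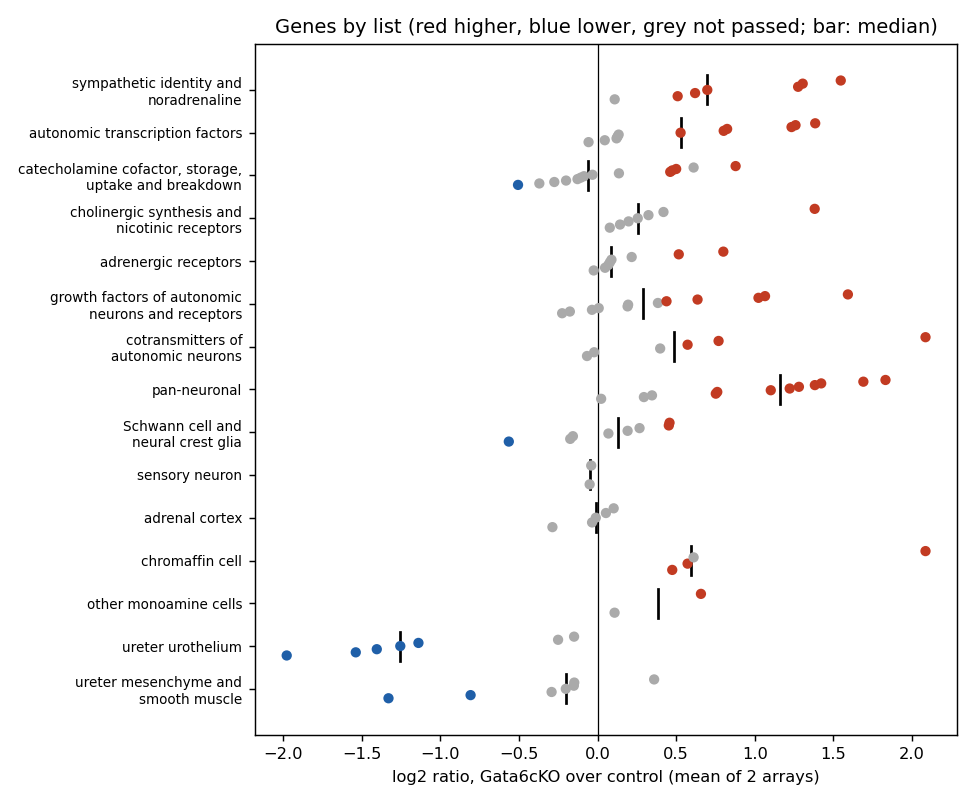
Log2 ratio of Gata6cKO over control (mean of 2 arrays) for each tested gene of the lists, with red for higher, blue for lower and grey for not passed by the limma test. Black bars are list medians. The median of the noradrenergic genes is 0.70, that of pan-neuronal genes 1.16, and that of urothelial genes -1.26. Some genes stand in more than 1 list.

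The rise of the noradrenergic genes went with that of genes found in neurons of all kinds. Of 12 pan-neuronal genes 9 rose, 0 fell and 3 did not pass, with a median log2 ratio of 1.16. The neurofilament genes Nefm and Nefl rose by 1.83 and 1.69, the neuronal tubulin Tubb3 by 1.42 and the peripheral neurofilament protein Prph by 1.28 (limma, adjusted p = 2.11e-06, 3.42e-06, 9.50e-06 and 1.68e-05). Summed probe intensities of this list were 44191 to 46840 in Gata6cKO and 31182 to 33871 in control. Tlx2, Dbh and Phox2a lay above the pan-neuronal median, and the other 4 noradrenergic genes tested lay below it. The part of neuron content in the ratios was not tested.

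Markers of the glia that accompany nerves gave 2 that rose, 1 that fell and 5 that did not pass, of 8 tested, with a median of 0.13. Sox10, the defining transcription factor of Schwann cells and neural crest, rose by 0.46, and Foxd3 by 0.45 (limma, adjusted p = 0.0296 and 0.0421). Ednrb, an endothelin receptor of crest cells and other cells, had a log2 ratio of -0.57, the mean of -0.27 (male) and -0.86 (female), and passed as lower (limma, adjusted p = 0.0313). Its second, dimmer probe gave -0.66 (male) and -0.58 (female). The calls of Sox10, Foxd3 and Ednrb were each lost in 3 of the 9 settings. Summed intensities of the glial list overlapped, at 85758 to 94941 in Gata6cKO and 84368 to 91051 in control.

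Other cells that make or handle monoamines were examined in the same way. Of 5 chromaffin cell markers, all of which also stand in the pathway lists, 3 of 4 tested rose and 0 fell, with Pnmt below the filter. Their sums were 93421 to 108031 in Gata6cKO and 63915 to 69693 in control, of which Penk alone gave 81359 to 97437 and 58606 to 61202. The adrenal cortex list gave 0 that rose and 0 that fell of 5 tested, with Cyp11b1, Hsd3b1 and Mc2r below the filter and sums of 7378 to 7433 in Gata6cKO and 8182 to 9442 in control. Sensory neuron markers gave 0 that rose and 0 that fell of 2 tested. The other 6 on the array, among them Prdm12, Avil and Trpv1, were below the filter, and the sums were 262 to 275 in Gata6cKO and 269 to 286 in control. Among markers of serotonin, dopamine and histamine cells, Tph1, a serotonin enzyme, rose by 0.66 (limma, adjusted p = 0.00272), as 1 of 2 tested. Tph2, Slc6a4 and Slc6a3 were below the filter, and the sums were 507 to 511 in Gata6cKO and 356 to 398 in control. Tph1 lost its call in 1 of the 9 settings. The part of these cells in the result was not tested.

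Most of the urothelial genes listed moved the other way. Of 7 urothelial markers 5 fell, 0 rose and 2 did not pass, with a median log2 ratio of -1.26. The 2 were Krt5, at -0.25, and Trp63, at -0.15, the mean of 0.10 (male) and -0.40 (female). The uroplakin genes Upk1b, Upk1a and Upk2 fell by 1.98, 1.54 and 1.40 on the log2 scale, and Grhl3 by 1.14 (limma, adjusted p = 2.11e-06, 4.81e-06, 9.50e-06 and 4.24e-05). The summed intensity of all 7 urothelial markers was 11639 to 12832 in Gata6cKO and 23963 to 29757 in control. Of 7 mesenchymal and smooth muscle markers 2 fell, 0 rose and 5 did not pass, with a median of -0.20 and sums of 61572 to 61914.5 in Gata6cKO and 64803 to 67955 in control. Myocd, the smooth muscle coactivator, fell by 1.33 and Myh11, smooth muscle myosin, by 0.81 (limma, adjusted p = 2.20e-05 and 0.000810). Array signal reports each RNA's makeup in relative terms, and the part of this shift in the higher ratios of nerve genes was not tested.

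All 7 measured noradrenergic genes had a larger log2 ratio on the female array than on the male array. Among all genes tested 52.6% did so, and among the genes that passed as higher 58.7% did. The order was not particular to these genes. Male and female medians were 0.94 and 1.29 for pan-neuronal genes, and 0.41 and 0.64 for the further transcription factors. They ran the other way for cholinergic genes (0.29 and 0.22), adrenergic receptors (0.21 and 0.01) and the catecholamine cofactor, storage, uptake and breakdown list (0.03 and -0.03). The gap was 0.04 for Dbh, 0.10 for Ddc, 0.29 for Th, 0.40 for Tlx2, 0.44 for Slc18a2, 0.53 for Slc18a1 and 0.77 for Phox2a. Dbh thus gave nearly the same ratio on both arrays, and Phox2a the least alike. Female minus male, the 2 controls differed by -0.64 for Phox2a and Slc18a1, -0.57 for Tlx2, -0.48 for Slc18a2, -0.31 for Th, -0.26 for Dbh and -0.25 for Ddc on the log2 scale. The first 4 lie outside the 5th to 95th percentile of all genes, -0.33 to 0.33, and the other 3 lie inside it. Between the Gata6cKO RNAs the differences ran from -0.22 for Dbh to 0.12 for Phox2a, all inside the -0.27 to 0.24 of all genes. Embryo sex, dye and array change together here and cannot be told apart, and with 1 RNA of each kind this difference was not tested.

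**Figure D4:**
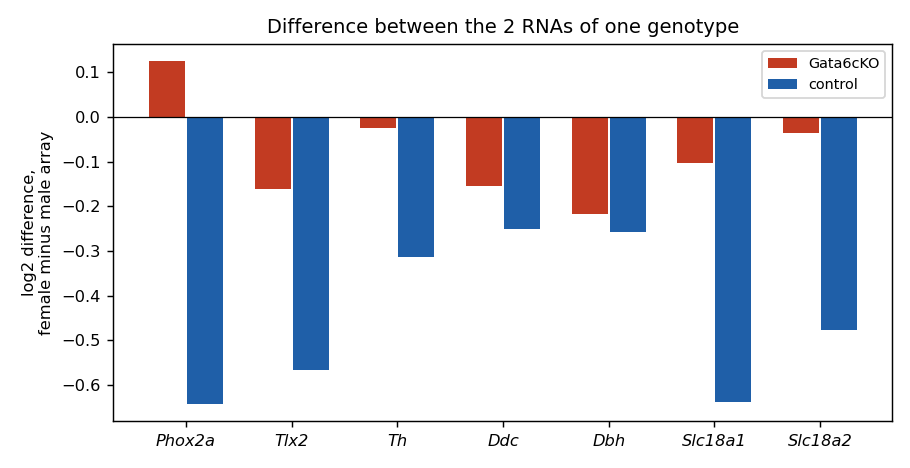
Difference in log2 normalised intensity, female minus male array, between the 2 RNAs of each genotype (red Gata6cKO, blue control), for the 7 measured genes. Bars are single differences without error. The control bars reach -0.64 for Phox2a and Slc18a1, whereas the Gata6cKO bars stay between -0.22 and 0.12.

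The genes whose pair of log2 ratios on the male and female arrays lay nearest to that of Dbh were Prph, Slc7a14, Isl1, Slc10a4l and Wt1, at Euclidean distances of 0.035, 0.096, 0.103, 0.108 and 0.116. Prph and Isl1 are known from peripheral neurons, and Wt1 is a transcription factor of the urogenital mesenchyme and mesothelium. Slc10a4l stands for a probe that the array calls Gm5868, a transcribed pseudogene with a sequence like that of Slc10a4, so the probe may read both and its identity is uncertain. With 2 arrays, likeness rests on 2 numbers per gene and describes these samples.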

How the data were processed

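Total RNA of 4 ureter samples was hybridised to 2 two-colour Agilent arrays with exchanged dyes, both on 1 slide. Per the file headers, the deposited intensity is each spot's raw mean signal and local background in Cy3 and Cy5, before correction. Agilent Feature Extraction 10.7.3.1 is named in the submitters' processing notes. The authors also deposited, for the series, a score per probe, which the scanner signals show to be a linear fold with sign, Gata6cKO against control (0 values between -1 and 1, r of 0.985 and 0.980 with processed log2 ratios, column medians of 1); how spots were summarised for it is not given in the sources used here. There were 0 unused sample columns.

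In R 4.3.3 with limma 3.58.1, statmod 1.5.0 and data.table (1.17.8), background was corrected by normexp (offset 50), and log2 ratios were normalised by loess within each array, with control and outlier spots at weight 0. The 4 spots of a probe were averaged. Probes entered the test if 3 or more of their 4 spots exceeded background well (the scanner's own mark) in the Gata6cKO RNA on both arrays, or in the control RNA on both, which left 26200 probes. The brightest kept probe stood for a gene, and 5046 genes had more than 1. Log2 ratios were fitted with lmFit and eBayes (1 residual and 11.9 prior degrees of freedom, prior SD 0.162) and adjusted over 19801 genes. Levels are normalised intensities after loess and Aquantile, in linear units. For a genotype not well above background on both arrays, the bound is the lowest intensity well above background there. The number of arrays limits the precision.

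Probe coordinates are those of the files, on mm9; exon and UTR positions were not analysed here. Symbols were updated through a table from RefSeq of GRCm38.p6 by accession or synonym (28328 probes matched by accession, 1602 symbols changed). Genes, lists and tests were chosen with earlier results of these data known. Named were all 8 genes, up to 4 passing genes per list by p, the pathway and marker genes of interest whatever their value, and the 5 genes nearest to Dbh; some of these are not reported here. The fit was also run on simulated ratios with errors drawn from the kind of model it assumes. That run checks the code only and cannot show effects of dye, array or sex. The alternatives were Agilent's processed signals, normexp without offset, median centring, no and a stricter filter, the mean of a gene's probes, an intensity trend, separate channels and the deposited series values.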

Additional observations from a re-analysis of the deposited data

Results flagged for a closer look

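Gata2 and Gata3, transcription factors of the autonomic list, had log2 ratios of opposite sign on the male and the female array. Gata2 had 0.18 (male) and -0.08 (female), a difference (female minus male) of -0.26. Gata3 had -0.38 (male) and 0.26 (female), a difference of 0.64. With 1 pair of RNAs on each array these differences were not tested, and sex, dye and array cannot be told apart.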

How the results depend on the processing

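Over the 9 alternative settings 0 of the called genes named in the text were reversed, with Slc6a2 untested under the stricter filter, and Dbh, Phox2a and Tlx2 passed in all 9, with log2 ratios of 1.27 to 1.35, 1.24 to 1.34 and 1.53 to 1.63. Over all genes, 436 were higher and 465 lower. These counts became 90 and 100 with median centring, 248 and 229 when dim probes stayed in, 275 and 267 under separate channels, and 672 and 795 with the deposited series values. Of the 7 measured noradrenergic genes, 6 passed; 3 did with median centring, 3 without the filter, 4 with separate channels and 5 with a gene's probes averaged. The 21 pathway genes that rose became 9 with median centring and 13 without the filter. The 1 that fell, Pts, became 0 in both and 0 with separate channels. Without the filter more genes were tested; otherwise the cause was not tested. The main fit is itself paired: each array holds a Gata6cKO and a control RNA, and the pair is the unit of the fit. No separate paired analysis was therefore run. Leaving out an array leaves no residual degree of freedom, so counts were not recomputed. Slide as a block was not run, since both arrays lay on 1 slide. Signal over background limits Chrna3 and Slc6a2.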
